A study of Homo sapiens with 28 samples.

Results

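GSK126 changed overlapping but unequal sets of genes in A549 and H1944, human lung adenocarcinoma cell lines, and the subject here is the difference between the lines: the log2 fold change of GSK126-treated over naive cells in H1944 minus the same fold change in A549. The members are the 17 libraries of GSK126-treated and naive cells, of 28 in the series, taken by the line and treatment in their labels. The cells of each line carried the MGT#1-mVenus reporter, from which the fluorescent protein mVenus is made. Treated cells had received GSK126 at 5 µM for 11 days and were sorted into a low and a high mVenus gate, while naive cells were neither treated nor sorted. A549 gave 3 libraries of the low gate, 2 of the high gate and 3 naive ones, and H1944 gave 3 of each. The labels do not say whether a line was 1 clone or whether lettered replicates were separate cultures, so the tests measure the spread between these libraries.

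GSK126 inhibits EZH2, the catalytic subunit of Polycomb repressive complex 2, which places the repressive mark H3K27me3 on histone H3. Genes that carry the mark in a given cell are held silent or low, and which genes carry it depends on the cell's history. In epithelial tumour cells, genes of the epithelial-mesenchymal transition, developmental regulators and germline genes are among those the complex is known to hold down.

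Total counts per library ran from 2013449 to 13280592. The epithelial keratin KRT8 measured 2750.5 to 6505.4 CPM (the count scaled to the library's total, without TMM factors) over the 17 libraries, whereas the lung lineage factor NKX2-1 and the alveolar genes NAPSA and SFTPB were too low to be tested and nowhere above 2.46 CPM. As a gauge of background, reads in 825 olfactory receptor genes that were silent here summed to 353 CPM in naive A549 library A and to 8.73 to 171 CPM elsewhere. Reads of mitochondrially encoded genes made up 6.39% to 9.31% of naive A549 libraries against 4.71% to 5.56% of treated ones, and 6.59% to 7.41% against 5.47% to 5.85% in H1944. Sorting was applied to treated cells in both lines, so within a line it cannot be told apart from GSK126, and the difference between the lines holds what sorting did unequally to them. Reads of mVenus itself came to 716 to 1079.9 CPM in low-gate A549, above the 465 to 499.9 CPM of naive A549, and to 209 to 280.5 CPM in low-gate H1944, below the 327 to 394 CPM of naive H1944. The low gate thus stood on opposite sides of the naive cells in the lines, and the part of this in the differences was not tested beyond fitting each gate alone.

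Of 16616 genes tested in a single edgeR fit of both lines, 2063 (12.4%) had an effect that differed between the lines at an adjusted p under 0.05. The effect was higher in H1944 for 1281 genes (7.71%) and lower for 782 (4.71%), and 4048 genes had an unadjusted p under 0.05. Within H1944, 2019 genes rose (12.2%) and 1892 fell (11.4%). A549 had 1463 that rose (8.80%) and 1752 that fell (10.5%). The median log2 fold change over all genes tested was -0.02 in H1944 and -0.12 in A549. Without naive H1944 library C, the deepest of the 17, H1944 had 2548 genes past the test in place of 3911.

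The changes fell into shared, opposite and line-only classes. In all, 1453 genes passed in both lines, 1210 of them in the same direction, with 615 higher (3.70% of genes tested) and 595 lower (3.58%). The other 243 (1.46%) moved in opposite directions, 149 higher in H1944 and lower in A549 and 94 the reverse. A gene was counted as changed in a single line only where the difference between the lines passed as well. By that rule 939 genes changed in H1944 only, 618 of them higher, and 590 in A549 only, 270 of them higher. A further 1519 genes passed in H1944 alone and 1172 in A549 alone without a difference past the test, so no difference was shown for them. The H1944-only count was 617 without naive H1944 library C.

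**Figure D1:**
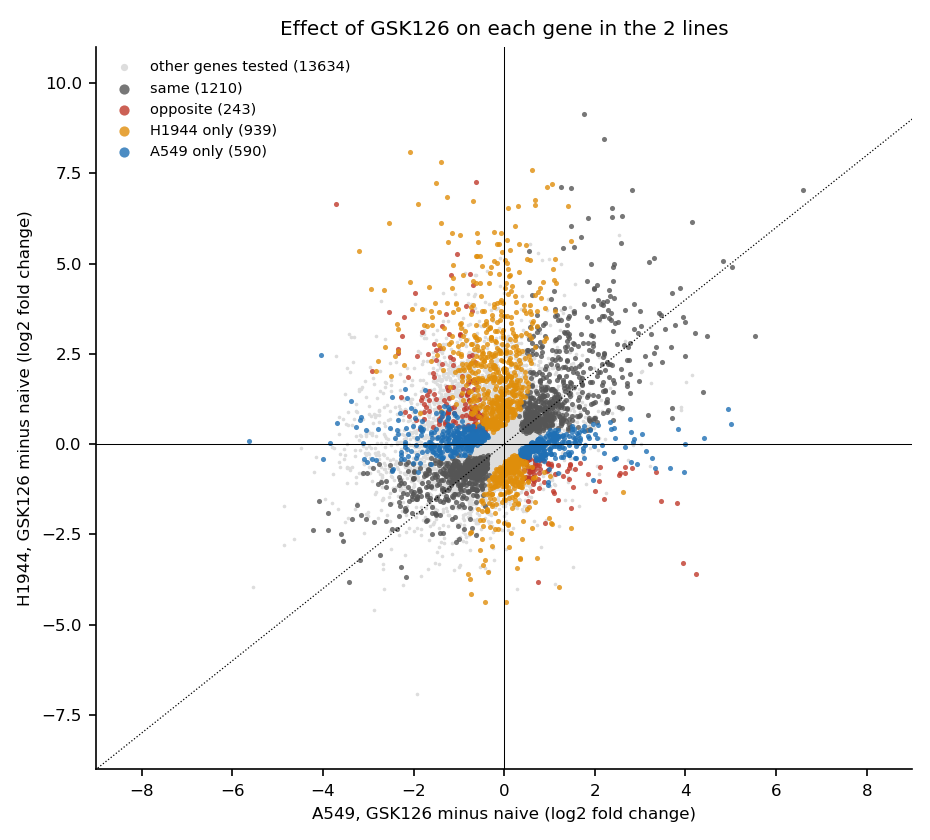
Each point is 1 gene, with the log2 fold change of GSK126 over naive cells in A549 on the x axis and in H1944 on the y axis, coloured by class with the number of genes in the legend; the dotted line marks equal effects. The 1210 genes of the same direction lie in the upper right and lower left, and the 939 H1944-only genes spread along the vertical axis.

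Across all genes tested the effects of the lines had a Pearson r of 0.21 and a Spearman rho of 0.23, given as a description over genes, which are not independent and of which many are low. Over 11960 protein-coding genes of at least 5 CPM in an arm, these were 0.32 and 0.34. The lines share no library in these values.

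Genes that rose in both lines included a chemokine receptor, a transcription factor of the mesenchymal programme and a carboxypeptidase. ACKR3, an atypical chemokine receptor, measured 0.725, 0.145 and 0.457 CPM in naive A549 and 14.2, 7.95 and 21.2 CPM in the low and 16.4 and 18.8 CPM in the high gate. In H1944 it was at 1.26, 2.08 and 1.28 CPM in naive cells and from 30.5 to 74.3 CPM under GSK126, with a median of 47.4. The treated and naive libraries did not overlap in either line, and in H1944 the 3 high-gate libraries, at 51.5 to 74.3 CPM, stood above the 3 low-gate ones. Its log2 rise was 5.02 (SE 0.38, adjusted p = 8.39e-10) in A549 and 4.92 (SE 0.31, adjusted p = 2.93e-11) in H1944.

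SNAI2, a repressor of epithelial genes, rose by 4.82 (SE 0.35) in A549, from at most 2.75 CPM to between 30.9 and 43.3, and in H1944 from at most 0.376 CPM to between 6.90 and 16.9. CPA4, a carboxypeptidase, rose by 3.71 (SE 0.30) and 4.20 (SE 0.36), and DLC1, a GTPase-activating protein, by 4.15 (SE 0.34) and 6.16 (SE 0.48). For ACKR3, SNAI2, CPA4 and DLC1 the difference did not pass, with adjusted p from 0.0601 to 0.922.

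Shared falls included genes of secreted proteins and of solute transporters. NTS, which encodes the peptide neurotensin, fell from 19.3, 38.9 and 20.7 CPM to between 2.09 and 4.75 CPM in A549 and from 47.1, 43.7 and 47.9 CPM to between 2.41 and 6.68 CPM in H1944, with no overlap of treated and naive libraries. The log2 changes were -3.18 (SE 0.31) and -3.22 (SE 0.25). The renal-type phosphate and urate transporter genes SLC17A3 and SLC17A1 fell as well, SLC17A3 by -3.61 (SE 0.32) and -2.50 (SE 0.27). HLA-DMB, which loads peptides onto MHC class II, fell further in A549, at -3.89 (SE 0.21) against -2.39 (SE 0.15), a difference of 1.5 (SE 0.29, adjusted p = 0.000718).

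Of the 1210 genes that moved the same way, the size differed past the test in 207. Among those that rose, 103 rose more in H1944 and 37 more in A549, and among those that fell, 24 fell further in H1944 and 43 further in A549. FN1, the matrix protein fibronectin, is such a gene. It measured 255, 209 and 239 CPM in naive A549 and 622, 788 and 1058 in the low and 575 and 1001 CPM in the high gate. Naive H1944 held 6.31, 8.32 and 7.61 CPM, against 359 to 556 CPM under GSK126 with a median of 458. All treated libraries lay above all naive ones in each line, and the highest treated H1944 library, at 556 CPM, lay just under the lowest treated A549 library. The log2 rise was 1.69 (SE 0.17) in A549 and 5.73 (SE 0.23) in H1944, a difference of 4.04 (SE 0.26, adjusted p = 1.44e-10).

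Genes of opposite direction included surface proteins, junction proteins and signalling antagonists. FBN1, the microfibril protein fibrillin-1, rose in A549 from 32.2, 25.7 and 28.5 CPM to 52.7, 41.7 and 52.2 CPM in the low and 50.8 and 57.0 CPM in the high gate. In H1944 it dropped from 344, 343 and 359 CPM to between 21.4 and 35.1 CPM, with a median of 28. Neither line had a treated library inside the range of its naive ones. The log2 changes were 0.75 (SE 0.13, adjusted p = 0.000168) and -3.83 (SE 0.12, adjusted p = 7.35e-17), and the difference was -4.59 (SE 0.18, adjusted p = 2.88e-14).

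ANPEP, the membrane peptidase CD13, went the same way: 4.20, 2.17 and 1.52 CPM became 24.3 to 60.5 CPM in A549, while 83.2, 83.6 and 85.4 CPM became 16.9 to 41.8 CPM in H1944. Treated and naive libraries were apart in both lines, and the difference was -5.46 (SE 0.38, adjusted p = 4.39e-10). KIAA1549L changed by 3.47 (SE 0.28) in A549 and -1.58 (SE 0.23) in H1944. NOG, the secreted BMP antagonist noggin, held 0.145, 0.145 and 0.305 CPM in naive A549 and 1.88 to 8.55 CPM after treatment, against 22.3, 22.5 and 17.2 CPM and 0.879 to 3.85 CPM in H1944. The NOG difference, -7.81 (SE 0.67), was the most negative among the genes named by rule.

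In the other orientation, CEACAM6, a cell adhesion glycoprotein of epithelial and tumour cells, fell in A549 from 571, 614 and 600.5 CPM to 290.2, 351 and 299.7 CPM in the low and 435 and 381 CPM in the high gate. H1944 held 5.89, 5.41 and 6.33 CPM in naive cells and 80.9 to 108 CPM under GSK126, with a median of 95.9. No treated library overlapped a naive one. Its log2 changes were -0.84 (SE 0.13) and 3.82 (SE 0.19), a difference of 4.66 (SE 0.23, adjusted p = 7.63e-13).

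CLDN2, a pore-forming tight junction claudin, moved from 138, 139 and 136 CPM to between 76.4 and 130.3 CPM in A549 and from 2.52, 2.50 and 1.88 CPM to between 44.5 and 56.3 CPM in H1944, a difference of 5.09 (SE 0.26). BMP6, a growth factor of the BMP family, changed by -2.55 (SE 0.32) in A549 and 3.65 (SE 0.47) in H1944, and PRR15 by -2.34 (SE 0.23) and 2.63 (SE 0.32). The intestinal guanylate cyclase receptor gene GUCY2C changed by -2.35 (SE 0.64) and 2.52 (SE 0.46). Its A549 ranges overlapped, and the A549 change was -1.32 (adjusted p = 0.17) without naive library A and -1.80 (adjusted p = 0.0937) without high-gate library B. OR51E2, a receptor of the olfactory family that is expressed in epithelial tissues, measured 15.7, 18.4 and 15.6 CPM in naive A549 and 0 to 2.29 CPM after treatment. It had no read in naive H1944 and 1.93 to 6.18 CPM under GSK126, so its rise there is at least 20.3-fold, taking 3 counts in the whole naive arm as the floor.

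**Figure D2:**
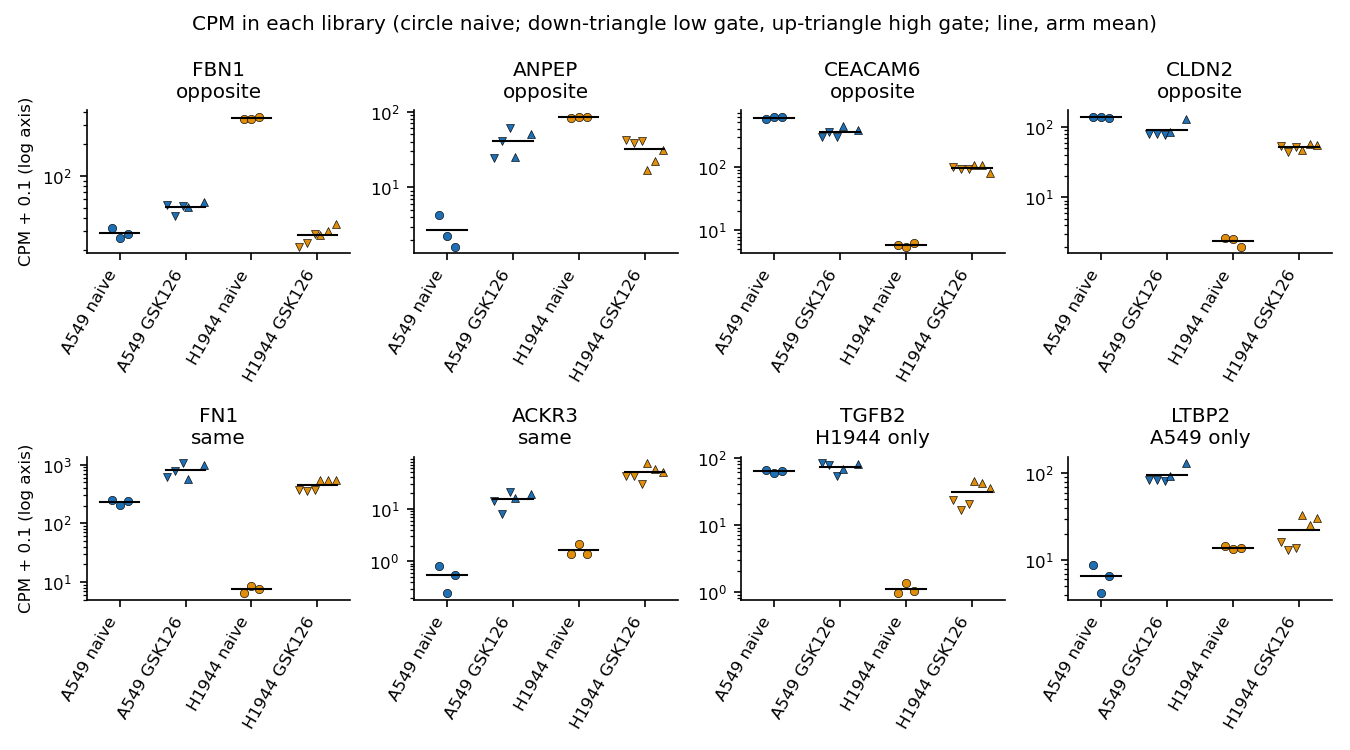
CPM plus 0.1 on a log axis for 8 genes in every library, with naive cells as circles, the low gate as down-pointing and the high gate as up-pointing triangles, A549 in blue, H1944 in orange and the arm mean as a line. FBN1 and ANPEP rise in A549 and fall in H1944, CEACAM6 and CLDN2 do the reverse, FN1 and ACKR3 rise in both, TGFB2 rises in H1944 and LTBP2 in A549.

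The letters before the start sites of 4 genes that stand for a shared rise, both opposite orientations and an A549-only rise follow, since genes held by Polycomb often start in CpG-rich sequence. Each is the 250 bases upstream of the RefSeq start in GRCh38.p14, 5′ to 3′ on the gene's strand, with every CG in capitals. FN1 lies at chr2:215436069-215436318 and FBN1 at chr15:48644971-48645220, both on the minus strand. CEACAM6 lies at chr19:41755280-41755529 on the plus strand and LTBP2 at chr14:74612238-74612487 on the minus strand.
FN1: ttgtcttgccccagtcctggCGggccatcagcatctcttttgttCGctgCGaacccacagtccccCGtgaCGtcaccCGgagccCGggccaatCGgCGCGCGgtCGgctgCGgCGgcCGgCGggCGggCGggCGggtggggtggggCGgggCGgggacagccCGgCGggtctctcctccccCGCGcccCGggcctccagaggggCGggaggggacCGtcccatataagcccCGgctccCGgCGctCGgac
FBN1: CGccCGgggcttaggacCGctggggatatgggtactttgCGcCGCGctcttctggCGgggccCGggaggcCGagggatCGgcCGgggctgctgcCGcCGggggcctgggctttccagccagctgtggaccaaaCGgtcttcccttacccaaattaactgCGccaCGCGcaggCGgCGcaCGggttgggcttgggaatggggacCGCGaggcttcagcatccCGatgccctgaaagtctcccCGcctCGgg
CEACAM6: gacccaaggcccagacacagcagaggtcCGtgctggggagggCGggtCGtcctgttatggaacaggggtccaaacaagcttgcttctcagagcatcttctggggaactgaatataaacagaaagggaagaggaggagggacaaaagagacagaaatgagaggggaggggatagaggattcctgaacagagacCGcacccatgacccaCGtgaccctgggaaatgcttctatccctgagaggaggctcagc
LTBP2: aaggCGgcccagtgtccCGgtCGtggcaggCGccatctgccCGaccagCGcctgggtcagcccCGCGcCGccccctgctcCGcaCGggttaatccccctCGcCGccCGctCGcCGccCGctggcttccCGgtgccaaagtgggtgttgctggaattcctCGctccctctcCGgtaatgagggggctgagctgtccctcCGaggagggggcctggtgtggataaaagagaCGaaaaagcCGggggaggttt
The windows of FN1, FBN1, CEACAM6 and LTBP2 hold 32, 25, 5 and 23 CG pairs. Over the 7660 tested coding genes with a single window the median was 21, and 99.0% held at least 1. FBN1 and CEACAM6, which moved in opposite directions between the lines, have 62.4% and 8.03% of windows below them in CG number. The motif CG reads the same on both strands and overlaps no other motif searched, and its number in a window says nothing of H3K27me3, which was not measured in these libraries.

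The 618 genes higher in H1944 only had a median of 2.80 CPM in naive H1944, and the 321 lower in H1944 only had 95.0 CPM. Over all genes tested it was 16.2 CPM. The same naive libraries set these classes, so part of this contrast follows from how they were made. TGFB2, a ligand of the TGF-β receptors, held 66.2, 57.8 and 62.5 CPM in naive A549 and 52.2 to 82.2 CPM after treatment, which overlapped. In H1944 it rose from 0.841, 1.25 and 0.904 CPM to between 16.3 and 44.2 CPM, median 29, with no overlap. The log2 changes were 0.13 (SE 0.15) and 4.68 (SE 0.28), a difference of 4.55 (SE 0.33, adjusted p = 6.91e-10). TRIM58, a ubiquitin ligase gene known from red cell maturation, stood at 0.42, 0 and 0.0753 CPM in naive H1944 and at 19.7 to 27 CPM under GSK126, while no A549 library exceeded 1.59 CPM. That rise in H1944 was 216-fold, with counting error alone giving 59.5 to 1790.6. BMF, a pro-apoptotic BH3-only gene, held at most 0.42 CPM in naive H1944 and 8.34 to 12.5 CPM under GSK126.

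H1944-only rises from 0 reads in naive cells can be given as lower bounds alone. They were at least 50.4-fold for SAGE1 and 22.1-fold for PAGE1, both cancer-testis genes, at least 46.9-fold for the keratin gene KRT6B and at least 13.4-fold for POTEG. PAGE1, KRT6B and POTEG have close copies that can share reads, so their levels are uncertain. In A549 the highest library of these 4 genes held between 0.497 and 1.49 CPM after treatment and between 0.435 and 1.30 CPM in naive cells. S100A3 rose at least 11.0-fold in H1944 and stayed between 13.4 and 31.7 CPM in A549. CCDC3 and GMPR each rose at least 17.3-fold, with at most 3.85 and 6.74 CPM in any treated H1944 library. The highest A549 value of POTEG and PAGE1 in naive cells was in library A, the one with the most background reads. Without that library the POTEG difference had an adjusted p of 0.189, and without naive H1944 library C the differences of POTEG, PAGE1, CCDC3 and GMPR had adjusted p from 0.0598 to 0.0875.

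Falls in H1944 only included PRIMA1, a membrane anchor of acetylcholinesterase, which dropped from 385, 371 and 375 CPM to between 12.5 and 49.8 CPM, a log2 change of -3.95 (SE 0.21), with at most 3.45 CPM in A549. CREB3L1, a membrane-bound transcription factor of the secretory pathway, changed by -4.37 (SE 0.34) in H1944 and -0.43 (SE 0.31) in A549. Its treated H1944 libraries differed by gate, at 0 to 0.575 CPM in the low and 1.93 to 4.49 CPM in the high gate. RARRES1, a retinoid-responsive gene, had the same arrangement, with 0 to 0.863 CPM in the low gate, 6.26 to 10.3 CPM in the high gate and at least 15.4 CPM in naive cells. With the high gate alone the RARRES1 difference was -1.33 (adjusted p = 0.249) in place of -3.71. RDH12, a retinol dehydrogenase, fell from at least 11.6 to at most 2.59 CPM; its difference had an adjusted p of 0.098 without high-gate A549 library B.

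Changes in A549 only included LTBP2, a matrix protein of the latent TGF-β binding family. It rose from 8.70, 4.05 and 6.40 CPM to 83.0, 83.4 and 81.6 CPM in the low and 92.4 and 130.02 CPM in the high gate. In H1944 it held 14.3, 13.3 and 13.6 CPM in naive cells and 13.1 to 33.2 CPM after treatment, with the low-gate libraries at 13.1 to 15.9 CPM. The ranges overlapped in H1944 and not in A549, and the difference was -3.42 (SE 0.25, adjusted p = 8.28e-10). FOXC2, a forkhead factor of mesenchyme, rose in A549 from at most 0.305 CPM to between 5.46 and 6.56 CPM, and naive H1944 already held 20.9 to 23.1 CPM. POPDC3 and RNF182 also rose in A549 only, with log2 rises of 3.27 (SE 0.27) and 3.99 (SE 0.52) in A549 and values of -0.38 (SE 0.17) and -0.00 (SE 0.37) in H1944. CCBE1, a secreted gene of lymphatic development, rose by 3.96 (SE 0.32) in A549 and had -0.76 (SE 0.38) in H1944, which did not pass.

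INSL4, a placental insulin-like gene, fell in A549 only, from 103, 134 and 103 CPM to between 13.7 and 23.7 CPM, whereas H1944 held 5.89 to 9.15 CPM in naive and 9.23 to 12.1 CPM in treated cells. TNFSF10, the death ligand TRAIL, changed by a log2 value of -5.64 (SE 0.78) in A549, from at least 9.30 CPM to at most 2.59, and its difference of 5.73 was 2.95 with the low gate alone (adjusted p = 0.05, not past the test) and 8.51 with the high gate alone. KHDRBS2 changed by -3.85 (SE 0.66) in A549 and 0.04 (SE 0.61) in H1944, and the difference of 3.88 lost its call with the low gate alone (2.59, adjusted p = 0.115) and with all 28 libraries in 1 fit (3.91, adjusted p = 0.07). PCDHA5, a protocadherin of a gene cluster whose members share exons, held too few counts in A549 for more than a level 5.98-fold lower, for which counting error gives 1.41 to 53.6, and its difference lost its call in 21 of the 30 alternative fits.

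Among genes that define epithelial and mesenchymal identity, the lines shared the fall of CDH1 and the rise of CDH2, FN1, VIM, AXL and SNAI2, and differed in the size of several. CDH1, E-cadherin, measured 64.5, 58.3 and 67.1 CPM in naive A549 and 5.61 to 9.16 CPM after treatment, and 267, 278 and 269 CPM against 64.8 to 125 CPM in H1944. The ranges were apart in both lines, and the fall was deeper in A549, at -3.25 (SE 0.15) against -1.68 (SE 0.11), a difference of 1.58 (SE 0.19, adjusted p = 2.86e-06). CDH2, N-cadherin, rose by 0.90 (SE 0.16) in A549 and 3.0 (SE 0.22) in H1944, from 4.16 to 6.17 CPM in naive cells to 40.4 to 63.7 CPM. AXL, a receptor tyrosine kinase, rose by 2.99 (SE 0.19) and 3.69 (SE 0.36), and VIM, vimentin, by 0.73 (SE 0.14) and 0.51 (SE 0.14), with no difference past the test for either (adjusted p = 0.357 and 0.532). VIM in H1944 stood at 142 to 174 CPM in naive cells, 148 to 194 CPM in the low gate and 275.4 to 380.2 CPM in the high gate, and its change was 0.05 (adjusted p = 0.883) with the low gate alone and 0.45 (adjusted p = 0.0643) without naive library A.

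CD44, a hyaluronan receptor, went in opposite directions: 293, 315 and 285 CPM became 589.5 to 776 CPM in A549, and 521, 528 and 523 CPM became 279 to 354 CPM in H1944. ZEB1, a repressor of CDH1, passed in opposite directions with small changes of 0.46 (SE 0.15) and -0.47 (SE 0.17), and its naive and treated ranges overlapped in H1944. The difference of -0.92 (SE 0.23, adjusted p = 0.00677) held in every alternative, but the calls within the lines did not. The A549 call was lost without high-gate A549 library A, low-gate B or C or naive A or C (adjusted p 0.0617 to 0.167). The H1944 call was lost without low-gate A549 library B or C, low-gate H1944 A or C, high-gate A or naive A or C (0.0523 to 0.207). ZEB2 rose by 2.05 (SE 0.32) in A549 and had 0.16 (SE 0.35) in H1944. EPCAM changed by -0.88 (SE 0.22) in A549 and had 0.12 (SE 0.16) in H1944, a difference of 1.00 with an adjusted p of 0.0132. That difference lost its call with the high gate alone (0.83, adjusted p = 0.129) and by limma-voom (0.99, adjusted p = 0.0669). Without high-gate A549 library B it was 0.81, and both it and the A549 change lost their calls. SNAI1 had 0.52 (SE 0.73) and -0.43 (SE 0.55), and EZH2, the target of the drug, 0.17 (SE 0.14) and 0.23 (SE 0.14), of which none passed.

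**Figure D3:**
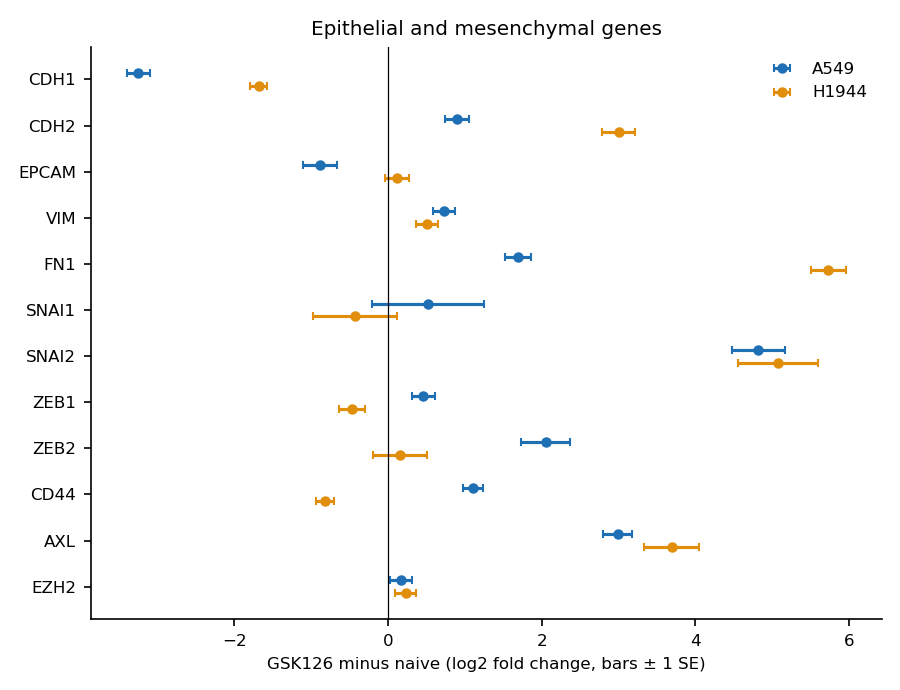
Log2 fold change of GSK126 over naive cells for 12 genes, EZH2 and 11 of epithelial and mesenchymal identity, in A549 (blue) and H1944 (orange), with bars of 1 SE. CDH1 is below 0 in both lines, FN1 and CDH2 are further right in H1944, and CD44 and ZEB1 lie on opposite sides of 0.

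Of 43 tested genes of epithelial identity, 18 (41.9%) had an effect higher in H1944 past the test and 3 lower, against 7.71% and 4.71% of all genes. In A549 18 fell and 4 rose, beside 10.5% and 8.80% of all genes. In H1944 12 rose and 9 fell, beside 12.2% and 11.4%, and 8 went in opposite directions, beside 1.46%. The H1944 rises numbered 7 without naive library A, and the falls 4 without naive library C, 5 without naive library B and 3 with gates summed per letter. The list's median log2 change was -0.62 in A549 and 0.14 in H1944, beside -0.12 and -0.02 over all genes tested. KRT8 and KRT18, simple epithelial keratins, changed by -1.10 (SE 0.12) and -1.30 (SE 0.13) in A549 and had 0.11 (SE 0.12) and -0.04 (SE 0.13) in H1944. The keratin gene KRT19 was higher in treated A549, at 401 to 640 CPM, than in naive A549, at 243 to 262 CPM. In H1944 it held 17.5 to 18.9 CPM in naive and 0.319 to 26.6 CPM in treated cells, which overlapped. The desmosome and adherens junction gene JUP changed by -1.84 (SE 0.19) in A549 alone, and ELF3, an epithelial transcription factor, changed by -1.43 (SE 0.15) and 0.55 (SE 0.14). ERBB3, a receptor of neuregulins, fell in both lines, by -1.95 (SE 0.19) and -1.52 (SE 0.15).

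Gut and liver genes had the highest share with an effect higher in H1944: 16 of 30 tested (53.3%), and 1 lower. Over all genes 7.71% were higher and 4.71% lower. In A549 14 fell, and in H1944 5 rose and 9 fell, with list medians of -1.03 and -0.08. Of all genes 10.5% fell in A549, and 12.2% rose and 11.4% fell in H1944. The fibrinogen genes FGA, FGB and FGG fell in A549 by -2.02 (SE 0.25), -2.37 (SE 0.30) and -2.34 (SE 0.32) and had 0.50, 0.39 and 0.27 in H1944. FGB measured 264 to 507 CPM in naive and 30.5 to 241 CPM in treated A549 libraries, which did not overlap. BAAT, a bile acid conjugating enzyme, fell in A549 from at least 21.3 to at most 2.59 CPM, and in H1944 no library exceeded 1.38 CPM. CPS1, the first enzyme of the urea cycle, fell in both lines and further in A549, by -2.01 (SE 0.15) against -0.54 (SE 0.13).

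Within the same list, HNF4A, a nuclear receptor of liver and gut, also fell in both, by -1.42 (SE 0.17) and -0.53 (SE 0.16). Its difference of 0.89 lost its call with the high gate alone (0.54, adjusted p = 0.286) and with a filter at 1 CPM (adjusted p = 0.0527). The call was also lost without high-gate A549 library A, where the HNF4A difference was 0.68. Its H1944 change did not pass without naive H1944 library B (adjusted p = 0.0529) or C (0.127). REG1A, a secreted gene of the regenerating islet family, went in H1944 from at most 1.26 CPM to between 62.1 and 134 CPM, a log2 rise of 7.58 (SE 0.42), with at most 2.59 CPM in A549. The REG1A difference was 6.97 (SE 1.02), and 5.15 with an adjusted p of 0.0557 without naive A549 library A. APOB, the apolipoprotein of very-low-density particles, rose by 1.86 (SE 0.38) in H1944, and without the same library its difference was 1.43 (adjusted p = 0.116) in place of 2.79.

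Cholesterol synthesis was the list with the highest share of effects lower in H1944, 12 of 31 (38.7%), with 2 higher. Over all genes 4.71% of effects were lower and 7.71% higher. In A549 16 rose and 1 fell, with 10 rises in A549 only, beside 8.80% and 10.5% of all genes. H1944 had 5 rises and 2 falls, with 2 rises shared, and these counts lay near the 12.2% and 11.4% of all genes. With each line fitted by itself H1944 had 11 rises, 6 of them shared, and 13 effects were lower in H1944. INSIG1, which retains the sterol sensor in the endoplasmic reticulum, rose in A549 from 39.9, 40.9 and 30.6 CPM to between 102 and 192 CPM, and in H1944 had 160.2 to 193 CPM in naive and 212 to 244 CPM in treated cells. Ranges were apart in both lines, but only the A549 change of 1.85 (SE 0.17) passed, against 0.23 (SE 0.15) in H1944. NPC1, an endosomal cholesterol transporter, rose by 1.47 (SE 0.15) in A549 and had -0.22 (SE 0.13) in H1944.

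**Figure D4:**
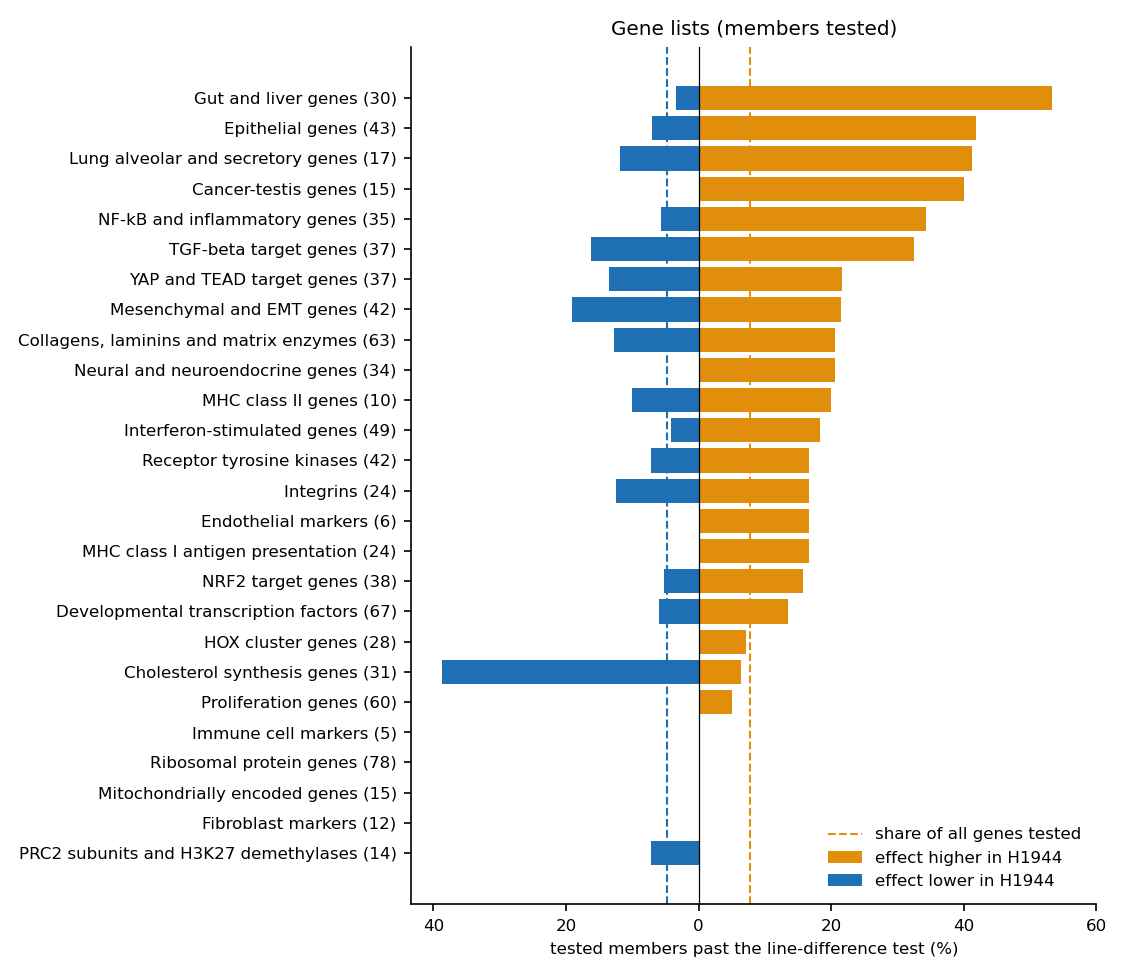
Share of tested members of each gene list whose effect was higher (orange, right) or lower (blue, left) in H1944 past the test, in percent, with the number tested in brackets and dashed lines at 7.71% and 4.71%, the shares over all genes. Gut and liver genes reach 53.3% on the right and cholesterol synthesis genes 38.7% on the left.

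TGF-β targets and matrix genes combined shared rises with unequal sizes. Of 37 TGF-β targets, 17 (45.9%) rose in both lines, beside 3.70% of all genes. The effect was higher in H1944 for 12 (32.4%) and lower for 6 (16.2%), beside 7.71% and 4.71% of all genes. TGFB1, the ligand, rose by 0.72 (SE 0.19) in A549, or 0.50 (adjusted p = 0.0982) without high-gate A549 library B, and by 3.24 (SE 0.26) in H1944, and CTGF, a matricellular target, by 1.14 (SE 0.17) and 2.59 (SE 0.18). ITGB6, an integrin chain that activates latent TGF-β, changed by -1.10 (SE 0.18) in A549 and rose by 1.04 (SE 0.16) in H1944. COL1A1, a chain of type I collagen, rose in both, from at most 3.91 to between 16.5 and 45.1 CPM and from at most 12.6 to between 33.2 and 81.4 CPM. With the low gate alone 11 TGF-β targets rose in both lines.

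Of 42 mesenchymal genes 13 (31.0%) rose in both lines, beside 3.70% of all genes, and 5 moved in opposite directions. In this list 9 effects (21.4%) were higher and 8 (19.0%) lower in H1944, beside 7.71% and 4.71% of all genes. TWIST1, a bHLH factor, rose from at most 0.42 CPM to between 4.15 and 10.8 CPM in H1944 and by 1.30 (SE 0.33) in A549. The list's median difference of 0.26 was -0.34 without naive A549 library A. Of 63 collagens, laminins and matrix enzymes 17 rose in both, 10 with the low gate alone, and of 37 YAP and TEAD targets 17. The 15 fibroblast markers, some of them matrix genes too, summed to 7.23 to 71.9 CPM in naive and 87.0 to 105 CPM in treated A549 and to 15.8 to 19.8 CPM and 46.6 to 146 CPM in H1944. PI16 was at 0 in every arm but naive A549. Of the 12 tested, 3 rose in each line, beside 8.80% of all genes in A549 and 12.2% in H1944. By edgeR 0 had a difference past the test, with 4 at an unadjusted p under 0.05 and 1 each by DESeq2 and limma-voom, and their part in the matrix genes was not tested.

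Inflammatory and antigen presentation genes had 12 and 4 members with a higher effect in H1944. Of 35 NF-κB and inflammatory genes 24 rose and 3 fell in H1944, against 10 and 5 in A549. Over all genes 12.2% rose and 11.4% fell in H1944, and 8.80% and 10.5% in A549. Of the list's effects 12 (34.3%) were higher in H1944 and 2 (5.71%) lower, beside 7.71% and 4.71% of all genes. CXCL8, the neutrophil chemokine, rose in H1944 from 3.24 to 4.57 CPM in naive cells to between 27 and 110.1 CPM, a log2 value of 4.25 (SE 0.46), and had 0.16 (SE 0.41) in A549 with overlapping ranges. CCL2, a monocyte chemokine, rose at least 108-fold in H1944 from no read, and in A549 by 1.77 (SE 0.58), a call lost without high-gate A549 library A or B, low-gate A or naive B or C (adjusted p 0.0564 to 0.118). CXCL5 changed by -1.12 (SE 0.16) in A549 and 1.58 (SE 0.17) in H1944. TNFAIP3, a feedback inhibitor of the pathway, rose in both, by 2.07 (SE 0.36) and 2.50 (SE 0.30).

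For MHC class I, HLA-B rose in both lines, from 9.71, 10.7 and 5.34 CPM to between 12.9 and 25.9 CPM in A549 and from 24.0, 36.2 and 23.1 CPM to between 153 and 227 CPM in H1944, with no overlap. The rise was larger in H1944, by 1.39 (SE 0.29, adjusted p = 0.00187); reads of HLA genes can be split between near-identical copies, so these levels are uncertain. B2M, the shared light chain, rose in H1944 by 1.06 (SE 0.20) and had -0.16 (SE 0.20) in A549. Of the list's 24 genes 11 rose in H1944 and 5 in A549, beside 12.2% and 8.80% of all genes. Of its effects 4 (16.7%) were higher in H1944, beside 7.71% of all genes.

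Interferon-stimulated genes were mixed, with 9 of 49 effects (18.4%) higher in H1944 and 2 lower, and 4 higher with the low gate alone. Over all genes 7.71% were higher and 4.71% lower. IFI6 rose by 2.02 (SE 0.30) in H1944 against -0.58 (SE 0.35) in A549, and IFIT1 by 2.96 (SE 0.67) against -0.65 (SE 0.50). OAS1, an antiviral synthetase, fell in both, by -1.48 (SE 0.14) and -1.47 (SE 0.14), a difference of 0.00 (SE 0.20). MX1 rose by 1.78 (SE 0.22) in H1944, and its difference of 1.79 was 1.11 (adjusted p = 0.118) without naive A549 library A. The 20 immune cell markers summed to at most 45.4 CPM in any library, with CD79A, NKG7, GNLY, TYROBP and LAPTM5 at 0 in naive H1944 and CD2, NKG7 and TYROBP at 0 in treated H1944.

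Cancer-testis genes, which are normally restricted to the germline, had 7 of 15 tested members higher in H1944, and 6 (40%) with a higher effect in H1944 than in A549. Over all genes these shares were 12.2% and 7.71%. Of 37 listed members only these 15 passed the filter on low counts. A gene can pass that filter through treated H1944 alone, which can raise both shares, so they are a description and no test. Members near 0 reads in A549 could hardly pass there. In A549 0 passed by edgeR, DESeq2 or limma-voom, with 2 at an unadjusted p under 0.05. MAGEA10 rose from 4.62, 5.41 and 4.97 CPM to between 28.5 and 42.5 CPM in H1944, a log2 rise of 2.59 (SE 0.24), and A549 libraries held at most 1.59 CPM. MAGEC1 and SSX1 started from 1 to 3 reads over naive H1944, and rose 31.3-fold (counting error 8.36 to 264) and 96.7-fold (17 to 3854.4). Their A549 values, -1.67 (SE 0.89) and -1.16 (SE 0.90), did not pass, the MAGEC1 rise had an adjusted p of 0.0515 without naive H1944 library C, and genes of these families have near-identical copies. With coding genes of at least 5 CPM alone, 3 members had a difference past the test.

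Most ribosomal protein genes fell in both lines. Of 78 tested, 62 (79.5%) fell in both, against 3.58% of all genes, with list medians of -0.56 in A549 and -0.70 in H1944, and 0 had a difference past the test by edgeR, with 5 at an unadjusted p under 0.05, 2 by DESeq2 and 1 by limma-voom. RPS27A changed by -0.91 (SE 0.19) in A549 and -1.04 (SE 0.18) in H1944, and RPL4 by -0.79 (SE 0.12) in H1944 with -0.32 (SE 0.12) in A549, which did not pass. The shared count was 21 with the high gate alone, 32 without high-gate A549 library B and 33 without naive A549 library B, where 8 differences passed. Many of these genes have processed pseudogenes, which can take part of their reads. Of 15 mitochondrially encoded genes 9 (60%) were lower in both lines, beside 3.58% of all genes, and 5 without naive H1944 library A. Differences numbered 0 by edgeR, with 2 at an unadjusted p under 0.05 and 1 each by DESeq2 and limma-voom.

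NRF2 targets, genes of oxidant defence, shared 11 falls of 38 tested (28.9%), beside 3.58% of all genes. GPX2, a glutathione peroxidase, fell in A549 only. It went there from 411, 425 and 359.8 CPM to between 73.0 and 125 CPM and measured 391, 426 and 395 CPM in naive and 469 to 671 CPM in treated H1944. The difference was 2.40 (SE 0.21, adjusted p = 1.19e-08). Although the ranges of H1944 were apart, its change there, 0.28 (SE 0.14), did not pass the test. NR0B1, a nuclear receptor, fell in both, by -1.0 (SE 0.15) and -1.72 (SE 0.16).

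Line differences in level were described last, because the lines started far apart: 8590 genes differed between naive H1944 and naive A549 at an adjusted p under 0.05, and 8747 between the treated cells. Over all genes tested the median absolute difference in level was 0.75 on the log2 scale in naive and 0.62 in treated cells, and 59.0% of genes lay closer under GSK126. Among genes higher in H1944 only, 451 of 618 were higher in A549 in naive cells, beside 4475 of all 16616 genes tested. Their median absolute difference went from 1.99 to 1.03. For genes of opposite direction that fell in H1944 it went from 2.05 to 0.87, with 85.1% closer, and for genes lower in both lines it was 0.73 and 0.74. For genes lower in A549 only it went from 0.93 to 1.03, with 49.7% closer. These values use the naive libraries that also set the effects, so part of the approach follows from how the classes were made, and no test was made on them.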

How the data were processed

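Stranded total RNA libraries for low input were made by the authors from 10 ng of RNA, per the labels' protocols. The deposited table holds integer read counts per gene: bcl2fastq 2.20.0, STAR 2.6.0c, HTSeq 0.12.3 and GRCh38 are named in the submitters' processing notes, and trimming or duplicate removal is not given in the sources used here. Without molecular identifiers, counting intervals cover counting error only. CPM used library totals. edgeR 4.0.16 (R 4.3.3) fitted 6 groups of line and gate by quasi-likelihood F tests with TMM factors, its own filter on low counts and Benjamini-Hochberg adjustment, with gates weighted equally and 1 spread per gene for both lines. Fitted alone, A549 libraries varied more (common coefficient of variation 0.245) than H1944 libraries (0.116). The fit was also run on simulated data, and the outcome is not given here. Rows of reporter sequences were left out of counts of genes.

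Libraries, classes and 26 gene lists were chosen with earlier results of these data known. Named genes came from a rule of effect size within classes, lists and key genes (93 genes), and 25 list members were added after their values were seen. Symbols came from GENCODE 29. A planned comparison of promoter CpG content by class is void, because RefSeq windows matched under 80% of coding members in 4 of 8 classes (74.8% to 81.9%). Alternatives were RLE factors, other filters, DESeq2 1.42.0, limma-voom 3.58.1, separate lines, a replicate block, summed or single gates, all 28 libraries, each library left out, and, added later, a background covariate and coding genes of at least 5 CPM. A few of the chosen genes are not reported here.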

Additional observations from a re-analysis of the deposited data

Results flagged for a closer look

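The effect of GSK126 differed between H1944 and A549 past the test for 2063 genes, and each value below is the log2 effect in H1944 minus that in A549 for a named gene, given because this difference itself was tested. No group had 4 libraries, so no library was tested as an outlier of its group. Among genes of opposite direction the differences were ANPEP -5.46, BMP6 6.2, CD44 -1.93, CEACAM6 4.66, CLDN2 5.09, CTSS 1.79, CXCL5 2.70, ELF3 1.98, FBN1 -4.59, GUCY2C 4.87, ITGB6 2.14, KIAA1549L -5.05, NOG -7.81, OR51E2 10.37, PRR15 4.97, TK1 1.45 and ZEB1 -0.92. Among genes changed in H1944 only they were APOB 2.79, B2M 1.22, BMF 5.90, CCDC3 6.47, CREB3L1 -3.94, CXCL8 4.09, EPHA5 3.23, ERG 2.94, GMPR 6.29, IFI6 2.6, IFIT1 3.61, KDM6A -0.69, KRT6B 9.22, MAGEA10 4.93, MAGEC1 6.0, MX1 1.79, PAGE1 8.10, POTEG 8.67, PRIMA1 -5.15, PROK2 -3.55, RARRES1 -3.71, RDH12 -4.39, REG1A 6.97, S100A3 6.10, SAGE1 10.17, SSX1 7.01, TGFB2 4.55 and TRIM58 8.72. Among genes changed in A549 only they were BAAT 6.52, CCBE1 -4.73, EPCAM 1.00, FGA 2.52, FGB 2.76, FGG 2.61, FOXC2 -4.24, GPX2 2.40, INSIG1 -1.62, INSL4 3.19, JUP 2.10, KHDRBS2 3.88, KRT18 1.26, KRT8 1.22, LTBP2 -3.42, NPC1 -1.69, PCDHA5 3.75, POPDC3 -3.65, RNF182 -3.99, TNFSF10 5.73 and ZEB2 -1.88. Among genes that moved the same way by unequal amounts they were CCL2 7.37, CDH1 1.58, CDH2 2.10, CPS1 1.47, CTGF 1.45, EBF1 5.85, FN1 4.04, HLA-B 1.39, HLA-DMB 1.5, HNF4A 0.89, ITGA5 -0.82, MUC5B -0.89, NR0B1 -0.72, TENM3 6.24, TGFB1 2.52 and TWIST1 4.12. Outside these classes the difference was HOXC4 1.26. For BAAT, BMF, CCDC3, CCL2, EBF1, GMPR, KRT6B, MAGEC1, OR51E2, PAGE1, PCDHA5, POTEG, S100A3, SAGE1, SSX1, TENM3, TRIM58 and TWIST1 an arm of 1 line held at most 3 reads, so the fitted value depends on the prior count and is no measure of the size.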

How the results depend on the processing

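With the low gate alone, 1343 genes had a difference between the lines, 788 moved the same way in both and 362 changed in A549 only. Leaving out each library in turn gave 1449 to 2300 differences, 2548 to 4597 genes changed in H1944, and 617 to 1156 changed in H1944 only; the lowest of these came without naive H1944 library C. No other count of the 9 tested moved by more than 1.5 times under the 30 alternatives. With each line fitted by itself, 5163 genes passed in H1944 and 2156 in A549, in place of 3911 and 3215. By limma-voom with weights by line these were 5574 and 2363. The balance between the lines thus differed with whether they shared 1 spread. Of the 2063 differences, 1996 were also called by DESeq2, 1726 by limma-voom and 1858 with background reads as a covariate. With no filter, 52100 genes were tested, the share of differences higher in H1944 was 72.3% in place of 62.1%, and the A549 median was -0.54 in place of -0.12. No called value of the 118 named genes changed sign. Of 87 differences among them, 59 stayed past the test in every alternative that tested them, and ERG, PCDHA5, MUC5B, ITGA5, HOXC4 and NR0B1 lost their call in 14 or more. The PROK2 difference of -3.55 lost its call in 7. Among these were the low gate alone (-2.09, adjusted p = 0.436) and the fit without low-gate A549 library A (-3.13, adjusted p = 0.188). Replicate letters were not taken as pairs. Same-letter correlations between the gates were 0.07 to 0.13 in H1944 and 0.07 to 0.15 in A549, and -0.17 to 0.19 between gates and naive cells. Different-letter correlations between the gates were lower in H1944, at -0.1 to -0.01, and -0.15 to 0.07 in A549. With 2 high-gate libraries in A549, the values for high-gate A and B mirror each other, at 0.15 and -0.15 against low-gate A. The A549 different-letter values are therefore no separate observation. Whether the gates of a letter came from 1 culture was not tested, and the main fit took them as separate libraries. A replicate block for letter within line gave 1870 differences. With the gates summed per letter there were 1528, and 1483 of the 2063 were kept. That fit had 885 genes that moved the same way and 421 changed in A549 only. In the shallowest library, of 2013449 counts, a gene under 1 CPM rests on about 2 reads or fewer.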

Other observations

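Receptor tyrosine kinases had 15 rises in H1944 and 9 in A549 among 42 tested, beside 12.2% and 8.80% of all genes. Effects higher in H1944 numbered 7 (16.7%) and lower ones 3 (7.14%), beside 7.71% and 4.71%, and the 3 became 0 with no filter on low counts. EPHA5, an ephrin receptor, rose in H1944 by 2.93 (SE 0.47), from 0 in naive libraries A and B and 0.602 CPM in C to between 1.98 and 7.70 CPM, and had -0.29 (SE 0.16) in A549, where every library held at least 143 CPM. All 8 naive H1944 reads of EPHA5 were in library C, and the difference of 3.23 was 7.10 without it. Neural and neuroendocrine genes had 7 of 34 effects (20.6%) higher in H1944, beside 7.71% of all genes. Their median difference of 0.93 was -0.10 with the low gate alone. L1CAM, a neural adhesion molecule, rose in both lines, by 2.40 (SE 0.25) and 3.13 (SE 0.25), while TENM3, a teneurin, rose by 2.21 (SE 0.34) in A549 and in H1944 471-fold, for which counting error alone gives 161 to 2286.2.

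Developmental transcription factors had 9 of 67 effects higher (13.4%) and 4 lower (5.97%) in H1944, beside 7.71% and 4.71% of all genes. EBF1 rose in both lines, in H1944 from 1 to 3 reads over the naive arm to between 13.8 and 34.6 CPM, and RUNX2, the factor of bone formation, rose by 4.48 (SE 0.34) in A549 and in H1944 11.3-fold (counting error 3.60 to 57.4), a call lost without low-gate H1944 library B (adjusted p = 0.065). HOX cluster genes gave 2 of 28 effects higher in H1944, a share of 7.14% that is near the background, and 0 with a filter at 1 CPM. Of the 14 PRC2 subunits and H3K27 demethylases, EPOP rose in both lines, by 0.85 (SE 0.26) and 0.93 (SE 0.24), with 0.33 (adjusted p = 0.516) in A549 without high-gate library B and 0.69 (adjusted p = 0.0783) without naive library A, and KDM6A, an H3K27 demethylase, changed by -0.56 (SE 0.13) in H1944 with 0.13 (SE 0.14) in A549. The KDM6A difference of -0.69 (adjusted p = 0.0165) lost its call in 5 alternative fits, among them the low gate alone (adjusted p = 0.0863), no filter on low counts (0.161), and the fits without naive H1944 library C (0.0579) or high-gate A549 library B (0.0604). Among 60 proliferation genes 14 rose in H1944 and 5 in A549, beside 12.2% and 8.80% of all genes. The H1944 rises numbered 7 without naive H1944 library A and 8 without library B, and the A549 rises 2 in the low gate fitted alone and 8 when naive A549 library B was left out. TK1, thymidine kinase, changed by -0.57 (SE 0.14) in A549 and 0.87 (SE 0.15) in H1944. MUC5B, an airway mucin, fell in both lines, changing by -1.60 (SE 0.20) and -2.49 (SE 0.19).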
